A study of Rattus norvegicus with 18 samples.

Results

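The transcripts of 10 antioxidant defence enzymes were followed with age and with 8-AG treatment in rat retina and RPE/choroid. The genes were taken by name: the superoxide dismutases Sod1, Sod2 and Sod3, the peroxide-removing enzymes Cat, Gpx1, Gpx3 and Gpx4, the quinone reductase Nqo1, and the subunits Gclc and Gclm of the enzyme that starts glutathione synthesis. All 10 were found by symbol among the 32285 genes of the retina table and the 32552 genes of the RPE/choroid table, each with a single identifier, and all 10 passed the filter on low counts in every comparison.

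Cells of the outer retina work under high oxygen tension and light, and photoreceptor membranes are rich in lipids that oxidize readily. Superoxide dismutases turn superoxide into hydrogen peroxide, SOD1 mainly in the cytosol, SOD2 in the mitochondrial matrix and SOD3 outside the cell. Catalase and the glutathione peroxidases then remove peroxides, and the peroxidases draw on glutathione, whose synthesis begins with the GCLC catalytic and GCLM modifier subunits. NQO1 reduces quinones, and its gene, like Gclc and Gclm, is a textbook target of the transcription factor NRF2, which binds antioxidant response elements.

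The rats were female Fischer 344, an albino strain. Young rats were 4 months old by the labels, though the study's legends give a lower age for them, aged rats were 24 months old, and 8-AG-treated rats were 24 months old after 5 mg/kg/day of 8-aminoguanine (8-AG), an inhibitor of purine nucleoside phosphorylase, in the drinking water for 8 weeks from 22 months. Each tissue had 3 libraries a group, 18 libraries in all. The retina was removed first and the RPE/choroid, the pigment epithelium with the vascular layer behind it, was then washed out of the same kind of eye cup, so other layers can be carried over. Young libraries 1 and 2 of RPE/choroid share a label number and differ in the letters L and R, as do aged libraries 1 and 2, so each pair may be both eyes of 1 rat, which the labels do not say. Nothing in the labels says that every library came from a different animal, so the p-values measure the spread between these libraries, which may in part be technical.

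Levels are given as CPM, the reads of a gene scaled to the same library total with TMM factors, and differences as log2 fold changes with 1 standard error (SE) from edgeR's quasi-likelihood test. A transcript is said to have risen or fallen where its Benjamini-Hochberg adjusted p over all genes tested was under 0.05. The study called genes by a change of more than 1.5-fold with P under 0.05, without saying whether P was adjusted, and that rule is counted beside it with the unadjusted P. Retina libraries held 12283458 to 15644346 counts and RPE/choroid libraries 28573828 to 48203050. Retina replicates were alike, with a Pearson r of log2 CPM across genes of at least 0.993, a description in which genes are not replicates. The labels give total RNA for the 3 8-AG retina libraries and polyA RNA for the other 15, so this labelled difference and the treatment cannot be told apart in retina. In RPE/choroid, 8-AG library 1 stood apart, at r = 0.903 and 0.912 with the other 8-AG libraries. It held 55112 CPM of 13 summed rod markers, against 602 to 19659 CPM in the other 8 RPE/choroid libraries, and 6143 CPM of 12 RPE markers, against 9575 to 18265. No RPE marker was at 0 throughout an RPE/choroid group, and no rod marker throughout a retina group. The RPE marker Otx2 went the other way, at 0 to 0.995 CPM in RPE/choroid libraries and 43.0 to 64.6 CPM in retina libraries.

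The promoters of 3 members are shown because Nqo1 gave the strongest change in the retina, while Sod2 and Gclm were the members whose start-proximal sequence held the core of an antioxidant response element. The sequences are the 250 bases before the start of transcription in RefSeq (build GRCr8), written 5′ to 3′ on the strand of the gene, and capitals mark the core TGACNNNGC or its reverse complement GCNNNGTCA.
Nqo1, chr19:52220268-52220517, minus strand: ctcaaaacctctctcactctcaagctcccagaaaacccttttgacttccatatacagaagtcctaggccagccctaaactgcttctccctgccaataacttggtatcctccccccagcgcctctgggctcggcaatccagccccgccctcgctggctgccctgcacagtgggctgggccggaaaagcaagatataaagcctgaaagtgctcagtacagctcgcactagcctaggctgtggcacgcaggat
Sod2, chr1:50050169-50050418, minus strand: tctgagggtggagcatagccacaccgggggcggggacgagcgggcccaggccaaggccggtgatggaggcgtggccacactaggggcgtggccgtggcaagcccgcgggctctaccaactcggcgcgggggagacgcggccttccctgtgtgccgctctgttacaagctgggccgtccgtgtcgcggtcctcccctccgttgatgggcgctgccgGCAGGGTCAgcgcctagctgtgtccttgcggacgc
Gclm, chr2:213031885-213032134, plus strand: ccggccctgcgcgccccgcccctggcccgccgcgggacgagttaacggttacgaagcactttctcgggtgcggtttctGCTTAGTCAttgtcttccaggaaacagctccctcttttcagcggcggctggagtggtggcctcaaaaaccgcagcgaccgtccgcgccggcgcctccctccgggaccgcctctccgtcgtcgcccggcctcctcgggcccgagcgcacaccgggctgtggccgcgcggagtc
The core lay 35 to 27 bases before the start in Sod2 and 172 to 164 bases before it in Gclm. Promoters were listed for 9 of the 10 members, and the other 7 of these 9, Nqo1 among them, had no match on either strand of this window. Of all 33469 promoters of the same length, 10.1% held the core, so a match is a description of the letters and not a binding site. GC content was 56.4% in the Nqo1 window, 71.6% in that of Sod2 and 70.4% in that of Gclm.

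Aged retina held more transcript of 5 of the 10 enzymes than young retina, and none fell. Nqo1 rose about 3-fold, the glutathione peroxidases Gpx1 and Gpx3 rose by 1.45-fold and 1.40-fold, and the dismutases Sod1 and Sod2 rose by less than 1.2-fold. Of all 14588 genes tested, 14.5% were called in either direction and 7.29% rose. By the study's rule only Nqo1 of the 10 changed, against 8.84% of all genes. The median log2 fold change of the members was 0.23, against 0.00 over all genes.

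Nqo1 stood at 3.16, 3.16 and 2.70 CPM in the young retina libraries, at 9.52, 11.67 and 7.88 CPM in the aged ones, and at 9.19, 6.28 and 6.62 CPM in the 8-AG ones. Every aged library was far above every young one, and the lowest aged value was more than 2-fold above the highest young value. The log2 fold change of Nqo1 from young to aged was 1.69 (SE 0.19, edgeR adjusted p = 0.00049), a 3.22-fold rise, and 98.2% of genes had a lower one. It rested on 40 to 42 counts a library in young retina and 114 to 183 in aged retina. With any 1 library left out the change of Nqo1 stayed between 1.53 and 1.82 with an adjusted p of at most 0.0040.

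**Figure D1:**
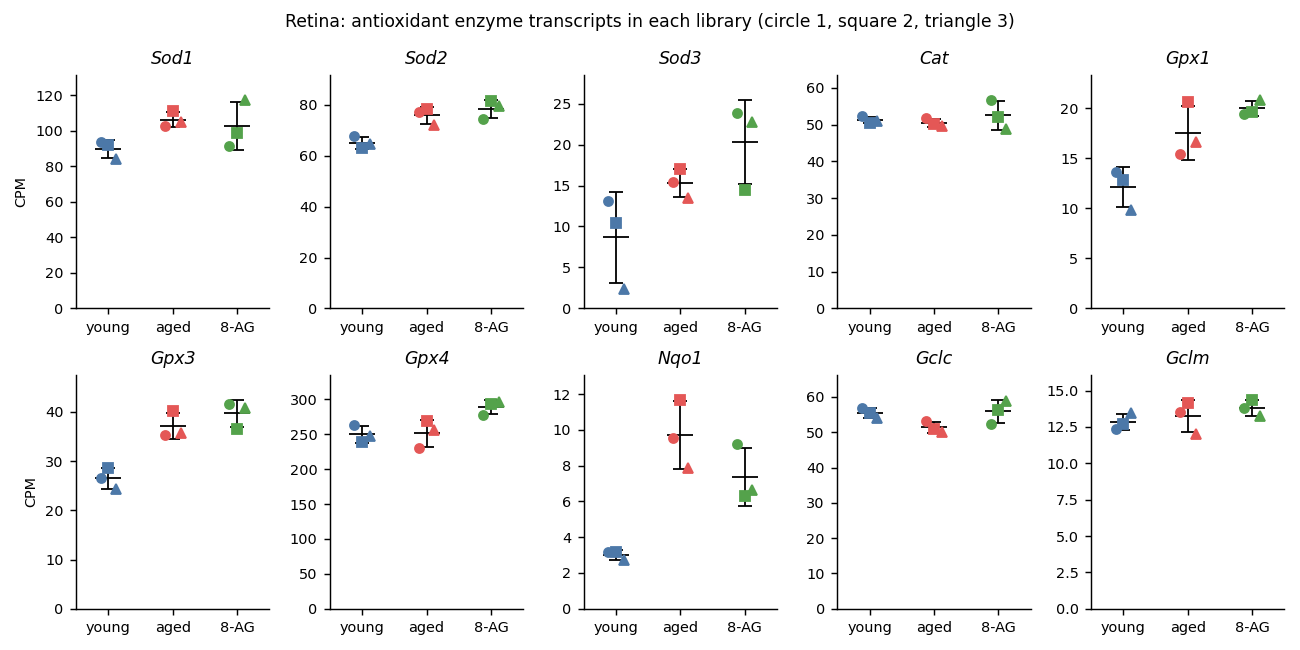
CPM of the 10 antioxidant enzymes in each of the 9 retina libraries (y axis from 0, one panel a gene), by group (x axis), with the mean as a dash and bars of 1 SD over 3 libraries. Nqo1 is near 3 CPM in all young libraries and between 6.28 and 11.67 CPM in all aged and 8-AG libraries, while Cat stays between 48.9 and 56.8 CPM throughout.

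Gpx3, the secreted glutathione peroxidase, stood at 26.6, 28.6 and 24.3 CPM in young retina and at 35.4, 40.1 and 35.7 CPM in aged retina. The groups did not overlap, and Gpx3 rose by a log2 fold change of 0.49 (SE 0.09, edgeR adjusted p = 0.0064). Gpx1, the cytosolic and mitochondrial glutathione peroxidase, stood at 13.6, 12.8 and 9.87 CPM in young and at 15.5, 20.6 and 16.6 CPM in aged retina. Its groups did not overlap either, and its log2 fold change was 0.54 (SE 0.15, edgeR adjusted p = 0.041).

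The cytosolic Sod1 was at 93.7, 92.0 and 84.3 CPM in young and at 103, 111 and 105 CPM in aged retina, an increase of 0.24 on the log2 scale (SE 0.06, edgeR adjusted p = 0.032). The mitochondrial Sod2 was at 67.6, 62.9 and 64.6 CPM in young and at 77.0, 78.4 and 72.1 CPM in aged retina, an increase of 0.22 on the log2 scale (SE 0.06, edgeR adjusted p = 0.038). All aged libraries lay above all young ones for both genes, by a small margin. These smaller changes lay near the threshold. Gpx3, like Nqo1, stayed called whichever library was left out, with an adjusted p of at most 0.029. Gpx1 and Sod1 were called only without aged library 1, and otherwise had adjusted p-values of 0.053 to 0.119 and 0.059 to 0.115. Sod2 lost its call whichever of the 6 libraries was left out (adjusted p 0.053 to 0.150), while its log2 fold change stayed between 0.20 and 0.26. Fewer of the enzymes were also called with age when the replicate number was fitted as a block.

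Sod3, which encodes the extracellular dismutase, was at 13.1, 10.5 and 2.43 CPM in young retina and at 15.5, 17.0 and 13.5 CPM in aged retina. Young library 3 lay far below the others, and the groups did not overlap. The log2 fold change of Sod3 was 0.83 (SE 0.60, edgeR adjusted p = 0.43), and it was 0.37 without young library 3 (adjusted p = 0.15). Young library 3 also had the lowest sum of 12 RPE markers among retina libraries, at 145 CPM against 169 to 465 CPM, and 8-AG library 1, with the highest Sod3 at 23.8 CPM, had the highest. The other libraries did not keep that order: aged library 2 had the second lowest RPE sum, at 169 CPM, with the highest Sod3 of the aged libraries, and young library 2 had a higher RPE sum than young library 1, at 270 against 201 CPM, with less Sod3. Whether RPE tissue in the retina preparations has a part in the Sod3 values was not tested.

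The other 4 enzymes gave no call with age in the retina. Catalase transcript (Cat), the peroxisomal enzyme, had a log2 fold change of -0.02 (SE 0.06), and its 6 libraries lay between 49.6 and 52.2 CPM. Gpx4, which reduces lipid peroxides in membranes, had 0.01 (SE 0.07) and Gclm 0.04 (SE 0.11). Gclc stood at 56.9, 55.3 and 54.1 CPM in young and 53.1, 51.0 and 50.2 CPM in aged retina. Its aged libraries all lay below its young ones, but its log2 fold change of -0.11 (SE 0.06) had an edgeR adjusted p of 0.29. In all, 7 of the 10 members had groups that did not overlap, 6 of them higher in aged retina, where 35.3% of all genes did not overlap and 18.1% were higher.

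Cell type markers also differed between these young and aged libraries. The 13 summed rod markers ran from 55856 to 60848 CPM in young and from 34563 to 39209 CPM in aged retina, and 11 of the 13 fell. The 11 summed microglia and macrophage markers ran from 39.5 to 41.5 CPM in young and from 119 to 205 CPM in aged retina, where all 9 that were tested rose, and the 4 astrocyte and reactive glia markers from 57.1 to 73.3 and from 284 to 532 CPM. The 9 summed cone markers ran from 318 to 342 CPM in young and from 270 to 281 CPM in aged retina, and 4 of the 9 fell. Of 10 Mueller glia markers, 3 rose and 3 fell. The 12 summed RPE markers ran from 145 to 270 CPM in young and from 169 to 330 CPM in aged retina. Of these 12, 9 were higher in aged retina and none was called. None of these marker genes was at 0 throughout a group. The 5 summed erythroid markers ran from 100.2 to 111 CPM in young retina and stood at 147, 453 and 165 CPM in aged retina, and none of the 3 that were tested passed. Aged library 2 had the highest erythroid, microglia and glia sums of the aged libraries and also their highest Nqo1, Gpx1, Gpx3, Sod1 and Sod2. Without it the log2 fold changes were 1.53 for Nqo1 and 0.43 for Gpx3, both still called, and 0.41 for Gpx1, 0.21 for Sod1 and 0.20 for Sod2, which were not. Summed lens markers were 2861, 6388 and 156 CPM in young retina and 17.5 to 24.6 CPM in aged retina, where 1 of the 10 lens markers was at 0 throughout. In bulk tissue, fewer cells of a type and less RNA per cell cannot be told apart, and the part of these shifts in the changes of the antioxidant enzymes was not tested.

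8-AG-treated aged retina gave no call for any of the 10 enzymes against untreated aged retina, where 0.0205% of 14631 genes were called. DESeq2 called none of the 10 either. At an unadjusted P under 0.05 only Gpx4 passed, against 3.67% of all genes, and by the study's rule none did, against 0.957%. Gpx4 was at 230, 268 and 256 CPM in aged and at 277, 294 and 296 CPM in 8-AG retina. Its 8-AG libraries all lay above its aged ones, as in 8.78% of all genes in either direction, with a log2 fold change of 0.20 (SE 0.08, edgeR adjusted p = 0.996).

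The Nqo1 libraries of treated and untreated aged retina overlapped. From aged to 8-AG the log2 fold change of Nqo1 was -0.40 (SE 0.20, edgeR adjusted p = 0.996), and it ran from -0.59 without 8-AG library 1 to -0.24 without aged library 2. Sod3 was at 23.8, 14.4 and 22.8 CPM in 8-AG retina, 0.41 above aged retina on the log2 scale (SE 0.19, edgeR adjusted p = 0.996). The other 7 enzymes lay between -0.05 for Sod1 and 0.18 for Gpx1, with SEs of 0.07 to 0.12. A missed threshold does not show that treated and untreated levels are alike. The 12 summed RPE markers ran from 169 to 330 CPM in aged and from 290 to 465 CPM in 8-AG retina, and 11 were higher. Surface epithelium markers summed to 32.9 to 38.2 CPM in aged and 50.1 to 145 CPM in 8-AG retina. All 8 that were tested were higher, and all 4 tested erythroid markers were lower. None of these markers was called, and their part in the enzyme values was not tested.

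8-AG-treated aged retina was also set against young retina, a comparison that shares its treated and its young libraries with the ones above and is not independent of them. Nqo1, Gpx1, Gpx3 and Sod2 rose, 4 of the 10, and none fell, where 14.9% of 14542 genes were called and 7.78% rose. Nqo1 had a log2 fold change of 1.29 (SE 0.20, edgeR adjusted p = 0.0031). Gpx1, at 19.5, 19.6 and 20.9 CPM in 8-AG retina, had 0.73 (SE 0.13, adjusted p = 0.0063). Gpx3, at 41.6, 36.5 and 40.8 CPM, had 0.58 (SE 0.09, adjusted p = 0.0037). These 3 genes kept their calls whichever library was left out. Sod2, at 74.5, 81.4 and 79.5 CPM, had 0.27 (SE 0.07, adjusted p = 0.025) and was called only without 8-AG library 1 or without 8-AG library 3 (adjusted p 0.051 to 0.12 without each of the other 4 libraries). By the study's rule Nqo1 and Gpx1 changed, against 8.58% of all genes. Cell type markers differed between the same libraries: all 11 microglia and macrophage markers rose, to a sum of 135 to 141 CPM under 8-AG against 39.5 to 41.5 CPM in young retina, and 9 of 13 rod markers fell. In aged against young retina, 9 of these 11 microglia and macrophage markers had passed the filter on low counts. All 3 tested astrocyte and reactive glia markers rose, as did 3 of 8 tested surface epithelium markers, of which 1 fell. Among 9 cone markers 1 rose and 1 fell, and among 10 Mueller glia markers 3 rose and 3 fell. The 12 summed RPE markers ran from 290 to 465 CPM under 8-AG and from 145 to 270 CPM in young retina. Of these 12, 10 were higher under 8-AG and none was called. 8-AG library 1 held 1768 CPM of lens markers, against 19.8 and 23.3 CPM in the other 8-AG libraries. The part of these differences in the rises of Nqo1, Gpx1, Gpx3 and Sod2 was not tested.

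Sod1 overlapped between 8-AG and young retina, at 91.5, 99.0 and 118 CPM under 8-AG (log2 fold change 0.19, SE 0.09, edgeR adjusted p = 0.21). Gpx4 had 0.21 (SE 0.06, adjusted p = 0.053), and it was called without 8-AG library 1 (adjusted p = 0.030). Sod3 had 1.24 (SE 0.64, adjusted p = 0.29). Groups did not overlap for 6 of the 10, all higher under 8-AG, where 35.5% of all genes did not overlap and 17.8% were higher. The order of group means in retina was young, aged, 8-AG for Sod2, Sod3, Gpx1, Gpx3, Gpx4 and Gclm, and young, 8-AG, aged for Sod1 and Nqo1. In that order aged and 8-AG libraries overlapped for each of these genes but Gpx4.

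**Figure D2:**
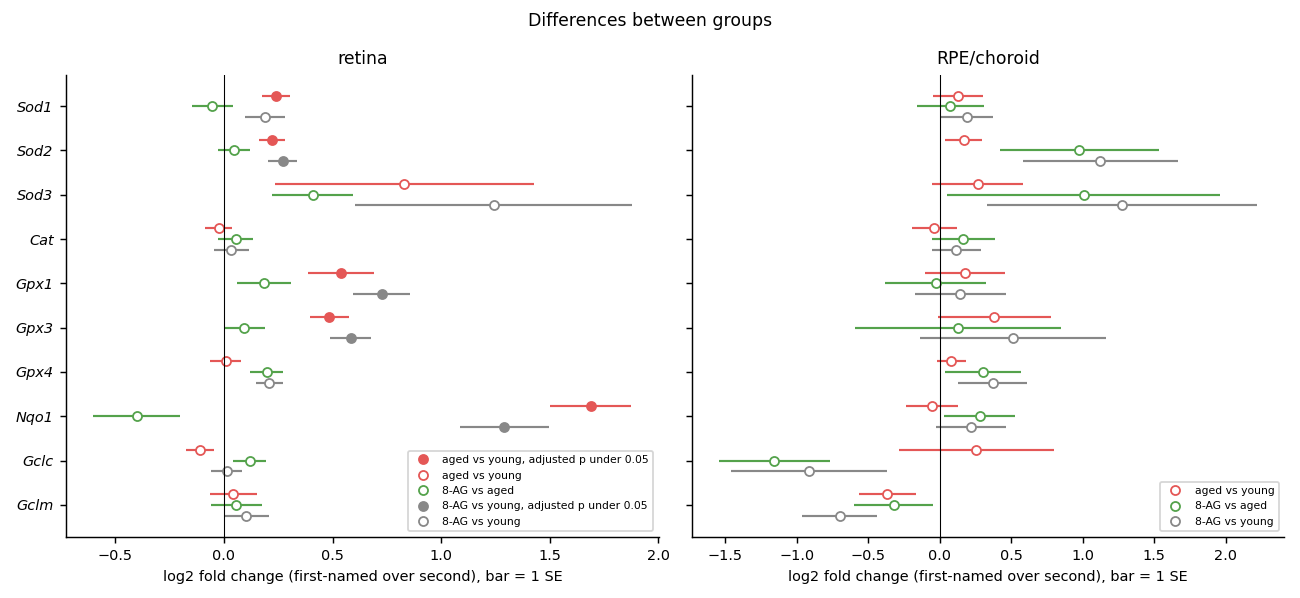
Log2 fold change of each antioxidant enzyme (x axis, bars of 1 SE) in 3 comparisons, in retina (left) and RPE/choroid (right, on its own x scale), with filled points where the adjusted p was under 0.05. Filled points are found in retina alone, 5 for aged against young and 4 for 8-AG against young, with Nqo1 farthest from 0 at 1.69 and 1.29.

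Genes that work beside the 10 enzymes were described from 6 lists, of which 102 of 106 genes were found. As background for their counts in aged against young retina, 7.29% of all genes rose and 7.26% fell. In aged against young retina 7 of 20 tested genes of the glutathione system rose and none fell. Gsta1, a glutathione S-transferase, went from 169 ± 1.66 to 327 ± 38 CPM (SD, n = 3), a log2 fold change of 0.95 (SE 0.08, edgeR adjusted p = 0.00014), although reads of close family members may be shared with it. Mgst1, a microsomal transferase, had 1.02 (SE 0.19, adjusted p = 0.0060), and the mitochondrial and peroxisomal transferase gene Gstk1 had 0.90 (SE 0.17, adjusted p = 0.0075).

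Of 25 tested genes of NRF2 and its targets, 6 rose and 1 fell. Hmox1, the inducible heme oxygenase, went from 0.77, 1.36 and 0.74 CPM to 2.11, 5.55 and 2.70 CPM, a log2 fold change of 1.86 (SE 0.43, edgeR adjusted p = 0.019). The epoxide hydrolase gene Ephx1 rose by 0.96 (SE 0.20, adjusted p = 0.012) and the biliverdin reductase gene Blvrb by 0.64 (SE 0.13, adjusted p = 0.0093). Mafg, a small MAF partner of NRF2 and of the repressor BACH1, fell by 0.52 on the log2 scale (SE 0.14, adjusted p = 0.035).

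Of 24 tested genes of the other superoxide, peroxide and thioredoxin system, 5 rose and none fell. They included Msrb2, a mitochondrial methionine sulfoxide reductase, with 0.97 (SE 0.15, edgeR adjusted p = 0.0029), Txnip, the inhibitor of thioredoxin, with 0.62 (SE 0.14, adjusted p = 0.018), and Prdx3, the mitochondrial peroxiredoxin, with 0.42 (SE 0.09, adjusted p = 0.012). Selenop, the plasma carrier of selenium, was the single gene called of 10 in selenoprotein synthesis and transport, with 1.2 (SE 0.24, adjusted p = 0.014).

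Oxidant-producing enzymes held 6 genes that rose of 8 tested, and none fell. The phagocyte NADPH oxidase subunits Cybb, Ncf1 and Cyba had log2 fold changes of 1.87 (SE 0.24, edgeR adjusted p = 0.00099), 1.84 (SE 0.27, adjusted p = 0.0018) and 0.97 (SE 0.25, adjusted p = 0.030). All 3 tested metallothioneins, which bind metals and scavenge radicals, rose: Mt2A by 2.98 (SE 0.25, adjusted p = 0.00020), Mt1 by 2.09 (SE 0.44, adjusted p = 0.018) and Mt3 by 0.61 (SE 0.18, adjusted p = 0.045). The rise of microglia and macrophage markers given above was measured in the same libraries, and its part in the NADPH oxidase values was not tested. List medians in aged against young retina were 0.37 for the glutathione system, 0.05 for NRF2 and its targets, 0.16 for the superoxide, peroxide and thioredoxin list, 0.88 for oxidant-producing enzymes, -0.04 for selenoprotein synthesis and 2.09 for metallothioneins, beside 0.00 over all genes.

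**Figure D3:**
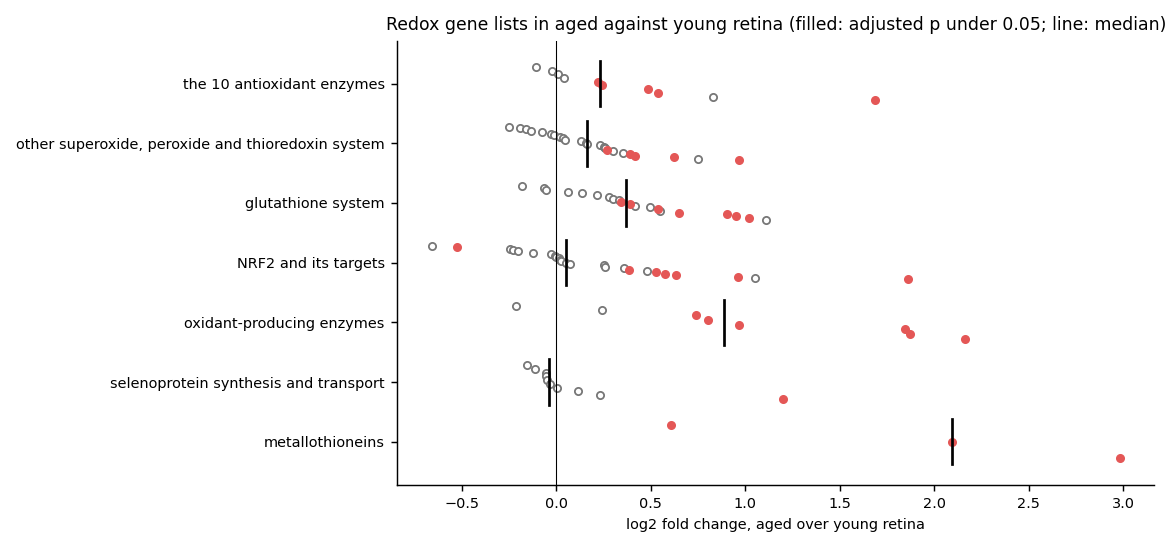
Log2 fold change of each tested gene from young to aged retina (x axis) for the 10 antioxidant enzymes and 6 related lists (rows), with filled points where the adjusted p was under 0.05 and a line at each median. Metallothioneins and oxidant-producing enzymes have the medians farthest to the right, at 2.09 and 0.88, and filled points lie to the right of 0 except for Mafg at -0.52.

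No gene of the 6 lists was called in 8-AG against aged retina, where 0.0205% of all genes were. None was called in any RPE/choroid comparison either, where 0.0% of all genes were. Against young retina, 8-AG retina had 10 of 21 glutathione genes, 7 of 10 oxidant-producing genes, 6 of 25 NRF2 genes, 5 of 24 of the superoxide, peroxide and thioredoxin list, 2 of 3 metallothioneins and 1 of 10 selenoprotein genes higher by the test, where 7.78% of all genes rose and 7.1% fell. Among NRF2 and its targets 2 fell in that comparison, Mafg and the aldehyde oxidase gene Aox1, which stood at 8.40, 8.13 and 8.78 CPM in young and 5.10, 5.71 and 6.55 CPM in 8-AG retina, and whose untreated aged libraries, at 6.56, 3.76 and 5.81 CPM, overlapped the 8-AG ones and also lay below the young ones. The monoamine oxidase gene Maob, whose product releases hydrogen peroxide, stood at 8.78, 7.98 and 9.39 CPM in young and 15.4, 14.8 and 15.2 CPM in 8-AG retina, and it rose. Untreated aged retina was at 14.6, 15.3 and 13.8 CPM of Maob, which overlapped the treated libraries and lay above all young ones.

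In RPE/choroid none of the 10 enzymes was called in any of the 3 comparisons. edgeR called no gene at all there (0.0% of 16047, 16257 and 16215 genes), while DESeq2 called 34 genes in aged against young, 41 in 8-AG against aged and 70 in 8-AG against young, none of them one of the 10 enzymes. At an unadjusted P under 0.05, edgeR passed no member in aged against young, where 2.13% of all genes passed and 1.35% met the study's rule, Gclc in 8-AG against aged, where 1.69% did, and Gclm in 8-AG against young, where 2.1% did. SEs of the members ran from 0.10 to 0.95 in RPE/choroid, against 0.06 to 0.64 in retina.

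With age, the transcripts of all 10 enzymes overlapped between young and aged RPE/choroid, where 7.1% of all genes did not. Nqo1 was at 31.7, 39.5 and 43.1 CPM in young and at 33.5, 43.4 and 33.7 CPM in aged RPE/choroid, a log2 fold change of -0.06 (SE 0.18). Gpx4 varied least, with 0.08 (SE 0.10), and its 6 libraries lay between 122 and 141 CPM. The largest differences among the 10 were 0.38 for Gpx3 (SE 0.40) and -0.37 for Gclm (SE 0.20).

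Gclc, the catalytic subunit of glutathione synthesis, was at 41.6, 16.3 and 11.9 CPM in young, at 35.5, 31.5 and 16.3 CPM in aged and at 8.59, 15.9 and 12.4 CPM in 8-AG RPE/choroid. All 8-AG libraries lay below all aged ones, as in 3.96% of genes in either direction, though aged library 3 and 8-AG library 2 were close, and the young libraries spanned both groups. The log2 fold change of Gclc from aged to 8-AG was -1.16 (SE 0.39, edgeR adjusted p = 1.0), which met the study's rule, as 1.65% of all genes did. Without 8-AG library 1 it was -0.97 and no longer met that rule, and no alternative called it.

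Its partner Gclm was at 64.5, 52.2 and 47.3 CPM in young, at 46.9, 47.3 and 33.2 CPM in aged and at 28.4, 45.1 and 27.2 CPM in 8-AG RPE/choroid. All 8-AG libraries lay below all young ones. The log2 fold change of Gclm from young to 8-AG was -0.70 (SE 0.26, edgeR adjusted p = 1.0), which met the study's rule, as 1.99% of all genes did, but it was -0.59 without 8-AG library 1 and no longer met that rule. Gpx4 was the only other member whose groups did not overlap between 8-AG and young RPE/choroid, where 5.94% of all genes did not. It was at 122, 130.02 and 129 CPM in young and at 216, 130.31 and 143 CPM in 8-AG, with a log2 fold change of 0.37 (SE 0.24), which was 0.12 without 8-AG library 1.

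**Figure D4:**
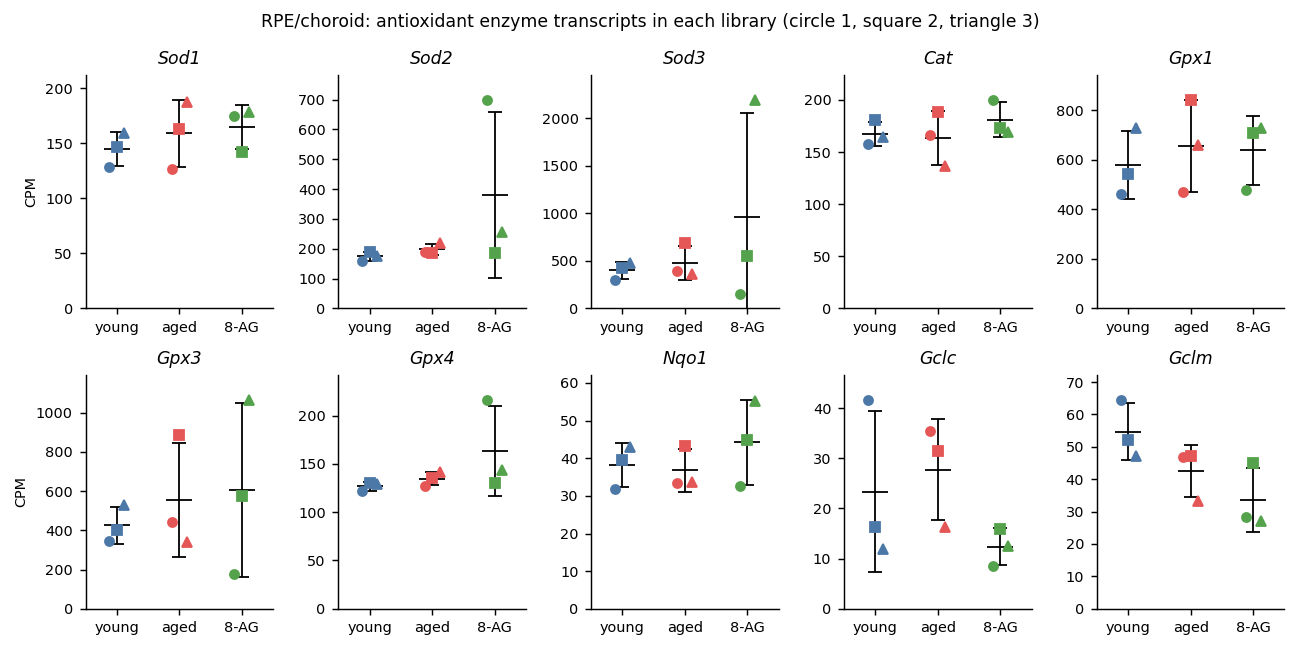
CPM of the 10 antioxidant enzymes in each of the 9 RPE/choroid libraries (y axis from 0, one panel a gene), by group (x axis), with the mean as a dash and bars of 1 SD over 3 libraries, ending at the axis where they pass 0. The 8-AG libraries spread widely for Sod2, at 185 to 700 CPM, and for Sod3, at 148 to 2195 CPM.

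Single libraries set several values of the 8-AG group in RPE/choroid. Sod2 was at 700, 185 and 258 CPM under 8-AG, against 187 to 219 CPM in aged and 160 to 190 CPM in young RPE/choroid, and library 1 alone lay far above. The log2 fold change of Sod2 from aged to 8-AG was 0.98 (SE 0.55) with library 1 and 0.16 without it. Sod3 was at 148, 555 and 2195 CPM under 8-AG, against 365 to 687 CPM in aged and 296 to 474 CPM in young RPE/choroid. Library 1 was the lowest of all 9 for Sod3 and library 3 the highest. From aged to 8-AG its log2 fold change was 1.01 (SE 0.95), 1.51 without 8-AG library 1 and -0.45 without 8-AG library 3. Gpx3 followed the same order, at 175, 575 and 1065 CPM under 8-AG, with 0.13 (SE 0.72), 0.56 without library 1 and -0.57 without library 3.

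The same 8-AG library 1 held 54997 CPM of 8 summed striated muscle markers, against 18.6 to 5188 CPM in the other 8, and 660 CPM of 9 endothelial markers, against 3567 to 7418. In each group 1 of the 9 endothelial markers was at 0 in all libraries. 8-AG library 3 held 18265 CPM of RPE markers, the highest of the 9, and 50.5 CPM of muscle markers. The part of these differences in tissue content in the values of Sod2, Sod3, Gpx3 and Gclc was not tested.

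**Figure D5:**
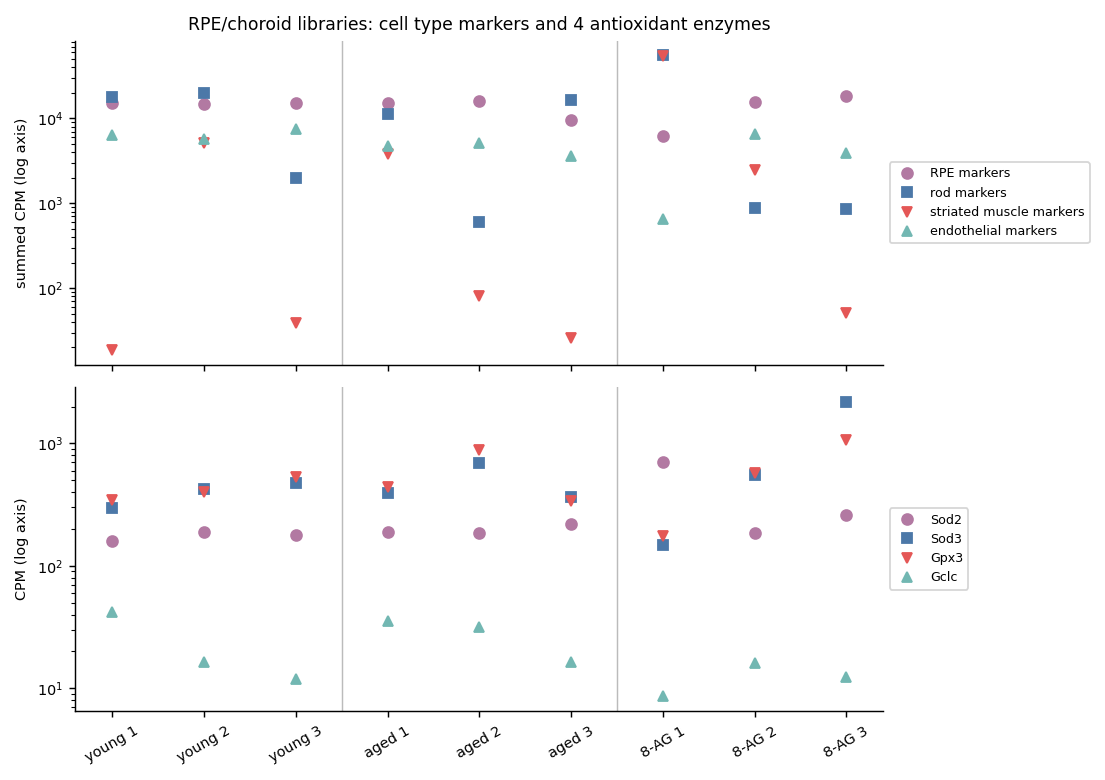
Summed CPM of 4 cell type marker lists (top) and CPM of Sod2, Sod3, Gpx3 and Gclc (bottom) in the 9 RPE/choroid libraries (x axis, grey lines between groups), both on log axes. 8-AG library 1 has the most rod and muscle marker reads, the fewest endothelial and RPE marker reads, the most Sod2 at 700 CPM and the least Sod3 and Gpx3.

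The aging change of Nqo1 was also compared between the tissues, by a test of the difference itself in one fit over 12 libraries. Only changes were compared, since the tissues were counted separately. The log2 change with age was higher in retina than in RPE/choroid by 1.74 (SE 0.26, edgeR adjusted p = 0.046) for Nqo1, 1 of the 10 members called, where 0.191% of 16792 genes were. That call was kept in 4 of 16 alternatives, with a log2 difference of 1.59 to 1.88 throughout. It was lost with the replicate block (edgeR adjusted p = 0.28), and with the RPE/choroid libraries of a shared label number summed (adjusted p = 0.11), an alternative chosen after seeing the data. It was also lost, at adjusted p-values of 0.052 to 0.122, on leaving out any one of the young libraries of either tissue, aged retina library 1 or 2, or aged RPE/choroid library 1 or 3. In the matching test of the 8-AG change no member was called, where 0.0% of 16915 genes were. Gclc had the smallest unadjusted P of the 10 there, with a log2 difference of 1.27 (SE 0.40, edgeR adjusted p = 1.0), its 8-AG change being 0.12 (SE 0.08) in retina.

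The genes whose log2(CPM + 1) followed that of Nqo1 most closely over the 9 retina libraries, among 10655 genes, were Hadh (Pearson r = 0.995), Irf1 (0.988), Psme1 (0.986), Litaf (0.981) and Ctsz (0.977). In RPE/choroid, where Gclm had the smallest adjusted p with age of the 10, the genes most like Gclm among 10756 were Galnt15 (r = 0.981), Rbm41 (0.972), Fam117b (0.963), Bmi1 (0.956) and Kbtbd2 (0.954). These are descriptions over 9 libraries that share their groups and their tissue content.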

How the data were processed

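RNA of 18 samples was sequenced, and the labels give total RNA for 3 libraries and polyA RNA for 15. The submitters' processing notes name Bowtie2 2.1.0, RSEM 1.2.15, edgeR and the Rnor_6.0 build, with no roles. For retina the authors deposited RSEM expected counts, of which 11.5% were not whole, and these were rounded. For RPE/choroid the authors deposited raw read counts. Symbols came from the name column of the deposited RPE/choroid tables and, for identifiers those do not name, from genes of equal values (within 0.001, log2) in the TMM-scaled signal that the authors deposited for retina. The authors' columns of fold changes and p-values were not used. Total counts were 12283458 to 48203050 a library.

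edgeR 4.0.16 (R 4.3.3) was run on the 6 libraries of a comparison with filterByExpr, TMM, estimateDisp, glmQLFit (robust=TRUE) and glmQLFTest, and p-values were Benjamini-Hochberg adjusted over all genes tested. For the interactions, the 12 libraries of both tissues were fitted together. The alternatives were RLE size factors, DESeq2 1.42.0, a filter of 10 counts a library or none, all groups of a tissue fitted together, the replicate number as a block, robust=FALSE, unrounded counts, RPE/choroid libraries of a shared label number summed (for the interactions, chosen after seeing the data), a rod score as a covariate, limma 3.58.1 voom with sample weights for the interactions, and each library left out. The code was tested on simulated data. Python 3.11.15 made the tables and plots.

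The members and lists were chosen with earlier results of these data known. The genes named are all members and, a list, up to 3 in each direction with the largest change among those called whose groups did not overlap and whose mean log2 CPM reached 1. For likeness, they are the 5 highest r among genes with a mean log2 CPM of 3 or more, for the member with the smallest p with age. Of the list genes 102 of 106, and of the marker genes 130 of 143, were found by symbol, and the others were not analysed here.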

Additional observations from a re-analysis of the deposited data

Results flagged for a closer look

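The aging change of Nqo1 differed between the tissues by a log2 difference of 1.74 (SE 0.26, retina minus RPE/choroid, edgeR adjusted p = 0.046), which was singled out because the difference itself passed the test. The call was lost in 12 of 16 alternatives, among them the replicate block (edgeR adjusted p = 0.28) and the summed RPE/choroid libraries of a shared label number (edgeR adjusted p = 0.11). Nqo1 was higher in 3 of 3 aged than in all young retina libraries, and its young and aged RPE/choroid libraries overlapped. The part of the differing tissue content of the RPE/choroid libraries was not tested.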

How the results depend on the processing

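The count of antioxidant enzymes called in aged against young retina was 5, and it was 2 to 4 with 1 library left out and 3 with the replicate block. Over all alternatives of that comparison that kept every library, 5 calls of single enzymes were lost, those with the replicate block among them. The other 75 changes kept direction and side of the threshold. The interaction of age with tissue called 1 of the enzymes, 0 to 1 with 1 library left out, 0 with the replicate block and 0 with the RPE/choroid libraries of a shared label number summed, which was chosen after seeing the data. The replicate numbers did not pair the libraries: deviations of libraries with the same number had r = -0.32 to 0.25 in retina and -0.61 to 0.70 in RPE/choroid. In the other comparisons no alternative moved the members' count past 1.5 times. Over the log2 changes of members and alternatives, 860 kept direction and side of the threshold, 37 lost a call, 3 gained one and 34 turned in sign. The 3 gains were all in 8-AG against young retina, 1 with a library left out and 2 with every library kept.

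Signs turned for Gclc in 8-AG against young retina without a filter (-0.0028), for Gpx3 in 8-AG against aged RPE/choroid with the replicate block (-0.13) and with the rod score (-0.20), and in 8-AG against young RPE/choroid with the rod score for Gpx1 (-0.0025) and Gpx3 (-0.20). The cause was not tested. Leaving out 1 library turned the sign of these changes, most of them small but Sod3 in the 8-AG comparisons of RPE/choroid, at 1.01 and 1.28 with all libraries, not. In aged against young retina Gpx4 ran from -0.040 to 0.066 and Gclm from -0.0093 to 0.11. In 8-AG against aged retina Gclm ran from -0.0091 to 0.11, Sod1 from -0.16 to 0.025 and Cat from -0.0044 to 0.11. In 8-AG against young retina Gclc ran from -0.024 to 0.058 and Cat from -0.024 to 0.086. In aged against young RPE/choroid Cat ran from -0.15 to 0.088, Gclc from -0.077 to 0.97, Nqo1 from -0.19 to 0.029, Gpx1 from -0.048 to 0.36, Sod3 from -0.085 to 0.44 and Gpx3 from -0.13 to 0.64. In 8-AG against aged RPE/choroid Gpx3 ran from -0.57 to 0.64, Sod1 from -0.075 to 0.20, Gpx1 from -0.23 to 0.19 and Sod3 from -0.45 to 1.51. In 8-AG against young RPE/choroid Sod3 ran from -0.18 to 1.80 and Gpx3 from -0.18 to 0.95.

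Over all genes, 8-AG against aged retina gave 3 calls, but 18 with DESeq2, 10 without a filter, 0 with at least 10 counts in every library, with robust=FALSE and with the replicate block, and 0 to 3 with 1 library left out. With 1 library left out, the number of calls ran from 1245 to 2312 in aged against young retina, beside 2122 with all libraries, and from 1026 to 2451 in 8-AG against young retina, beside 2163. In RPE/choroid, edgeR gave 0 calls in the 3 comparisons and DESeq2 34, 41 and 70, and the rod score gave 1 in aged against young. The interaction of age with tissue gave 32 calls, 311 with limma-voom sample weights, 0 with the replicate block or the summed libraries and 0 to 70 with 1 library left out, and that of 8-AG with tissue gave 0, and 0 to 7 with 1 left out. With 3 libraries a group, 1 library often decides a call, and the Nqo1 level in young retina rests on about 40 counts a library.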
